A study of Mus musculus with 6 samples.

Results

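The genes described here encode cathepsins, the lysosomal proton pump and the lysosome-associated membrane proteins (LAMPs), in liver RNA of 6 mice aged 6 weeks. They were chosen by symbol: 48 rows of the count table began with Cts and a further letter, with Atp6a or Atp6v, or with Lamp and a digit. Of these, 38 of the 26608 rows in the table held at least 10 counts summed over the 6 mice and were kept, namely 13 cathepsins, 23 proton pump genes and 2 LAMP genes. Bulk liver RNA was sequenced from 3 LiK mice and 3 LiKM mice, which differ in genotype, and the labels do not spell these names out. The published study, though not the labels, tells that hepatocytes of LiKM mice lack Mdm2, the ubiquitin ligase that keeps p53 low. What else the genotypes carry is not reported here. The promoter that drives the change in hepatocytes is not given in the sources used here, and the other cells of the liver are not said to be altered. The titles give each mouse its own code, and nothing says whether the mice were littermates.

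Lysosomes break down proteins, lipids and sugars taken up by the cell or delivered by autophagy. The V-type ATPase pumps protons into them: its V1 sector in the cytosol splits ATP and turns a ring of the V0 sector in the membrane. Cathepsins are the proteases that work in the resulting acid, and LAMP proteins make up much of the glycoprotein coat inside the membrane. Most cells make these proteins. Some cathepsins are known for their work in leukocytes, though not all are confined to them: cathepsin S trims the invariant chain of class II molecules in antigen-presenting cells, cathepsin W is found in cytotoxic T cells and natural killer cells, and cathepsin C activates granule proteases.

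The promoters of several of these genes share a short motif that the choice of genes did not use. Many lysosomal genes carry an E-box, CACGTG, as the core of the site bound by the factor TFEB and its relatives. RefSeq start sites on GRCm38.p6 were matched by symbol for 26 of the 38 genes, and the 250 bases before each start were searched on both strands. CACGTG was present for 7 of these 26 genes (26.9%), against 6.86% of 27025 genes with such a sequence. They were Ctsa, Ctsd, Ctsf, Ctsl, Lamp1, Atp6v0b and Atp6v1a. The longer form TCACGTGA, which contains the core, was present for 3 of them (Ctsa, Ctsd and Atp6v1a; 11.5% against 0.907% of all genes). A match is only a match of letters. The upstream sequences of Ctsd, Lamp1 and Atp6v0b are shown because they hold more than 1 copy of the core, in capitals, and that of Ctss because it is the gene that changed. Ctss had no CACGTG, and the capitals in its sequence mark GAAA, any 2 bases and GAAA again, a motif of interferon regulatory factors. That motif was present for 3 of 26 genes (Ctss, Lamp1 and Atp6v1d; 11.5%) and 3.46% of all genes.
Ctss, chr3:95526536-95526785, plus strand: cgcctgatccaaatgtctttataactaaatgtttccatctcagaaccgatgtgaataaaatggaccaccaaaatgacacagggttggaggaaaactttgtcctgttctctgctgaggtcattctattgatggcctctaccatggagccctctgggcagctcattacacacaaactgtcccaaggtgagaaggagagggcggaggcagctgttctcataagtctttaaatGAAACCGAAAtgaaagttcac
Ctsd, chr7:142387828-142388077, minus strand: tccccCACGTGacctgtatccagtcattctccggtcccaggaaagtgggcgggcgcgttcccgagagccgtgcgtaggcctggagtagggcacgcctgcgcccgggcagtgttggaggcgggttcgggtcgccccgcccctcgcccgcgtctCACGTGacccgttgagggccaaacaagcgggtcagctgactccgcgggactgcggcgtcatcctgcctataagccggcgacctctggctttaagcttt
Lamp1, chr8:13158911-13159160, plus strand: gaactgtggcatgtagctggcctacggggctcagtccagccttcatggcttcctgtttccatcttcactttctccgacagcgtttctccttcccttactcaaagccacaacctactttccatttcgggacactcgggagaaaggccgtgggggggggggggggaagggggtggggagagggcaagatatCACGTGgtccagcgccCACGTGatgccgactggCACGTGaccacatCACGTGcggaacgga
Atp6v0b, chr4:117887330-117887579, minus strand: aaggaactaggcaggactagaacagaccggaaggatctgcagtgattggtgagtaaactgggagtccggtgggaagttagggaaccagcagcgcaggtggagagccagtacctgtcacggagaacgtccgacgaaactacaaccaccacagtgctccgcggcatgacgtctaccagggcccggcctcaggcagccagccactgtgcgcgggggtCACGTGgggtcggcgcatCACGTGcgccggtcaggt
The copies of the core in Lamp1 began 61, 45, 28 and 15 bases before the start, and those in Atp6v0b 36 and 18 bases before it, while those in Ctsd began 245 and 98 bases before it. In Ctss the marked letters began 21 bases before the start. Of 7 motifs searched in all, the other 4 were TCACGTGA with G before and C after it (0 of 26 genes, against 0.270% of all), GGAAGT (8 of 26, against 22.2%), GAGGAAGT, which contains GGAAGT (1 of 26, Ctsc, against 2.79%), and TATAAA (2 of 26, against 14.3%).

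The libraries held between 19909993 and 24874343 counts and 16847 to 17472 detected genes. Levels are in CPM, that is counts relative to a library size adjusted by TMM, a scaling that sets the bulk of genes level. Mdm2, the gene that the published study names as deleted, lay at 28.7, 29.0 and 28.6 CPM in LiK and at 122, 124 and 60.5 CPM in LiKM. Its count sums all exons, so this rise checks that the libraries of the 2 labels differ but not that part of the gene was lost. The hepatocyte markers Alb, Apoa1, Ttr, Serpina1a, Tat and Cps1 summed to between 107614 and 131807 CPM in LiK and between 114030 and 130663 CPM in LiKM, so the labelled tissue showed its defining genes, and 0 of the 6 were called (edgeR, DESeq2 and limma-voom; 1 at an unadjusted p under 0.05).

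Among all these lysosomal genes, cathepsin S alone changed by the main test. A call here means edgeR's quasi-likelihood test gave a p under 0.05 after Benjamini-Hochberg adjustment across 13537 tested genes. Of the 38 genes, 35 had enough counts for that test, and of those 1 rose in LiKM and 0 fell. Over all genes tested, 5.11% were called higher and 0.813% lower (5.92% in either direction), so 1 of 35 is no more than the table as a whole gives. The median log2 fold change of the 35 was −0.06, beside −0.0034 over all genes tested, and 30 of the 35 lay within 0.5 of 0. At an unadjusted p under 0.05 there were 4 higher (Ctss, Ctsw, Ctsd and Atp6v0e2) and 2 lower (Ctsh and Atp6v0c-ps2), or 6 of 35, against 22.4% of all genes tested. DESeq2 called Ctss higher and Ctsh lower, against 11.8% of all genes called by it in either direction, and limma-voom called Ctss only, against 4.77%. The 3 kept genes that were not tested were Ctse, Atp6v0a4 and Atp6v1c2, with 19, 28 and 12 counts over all 6 mice.

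**Figure D1:**
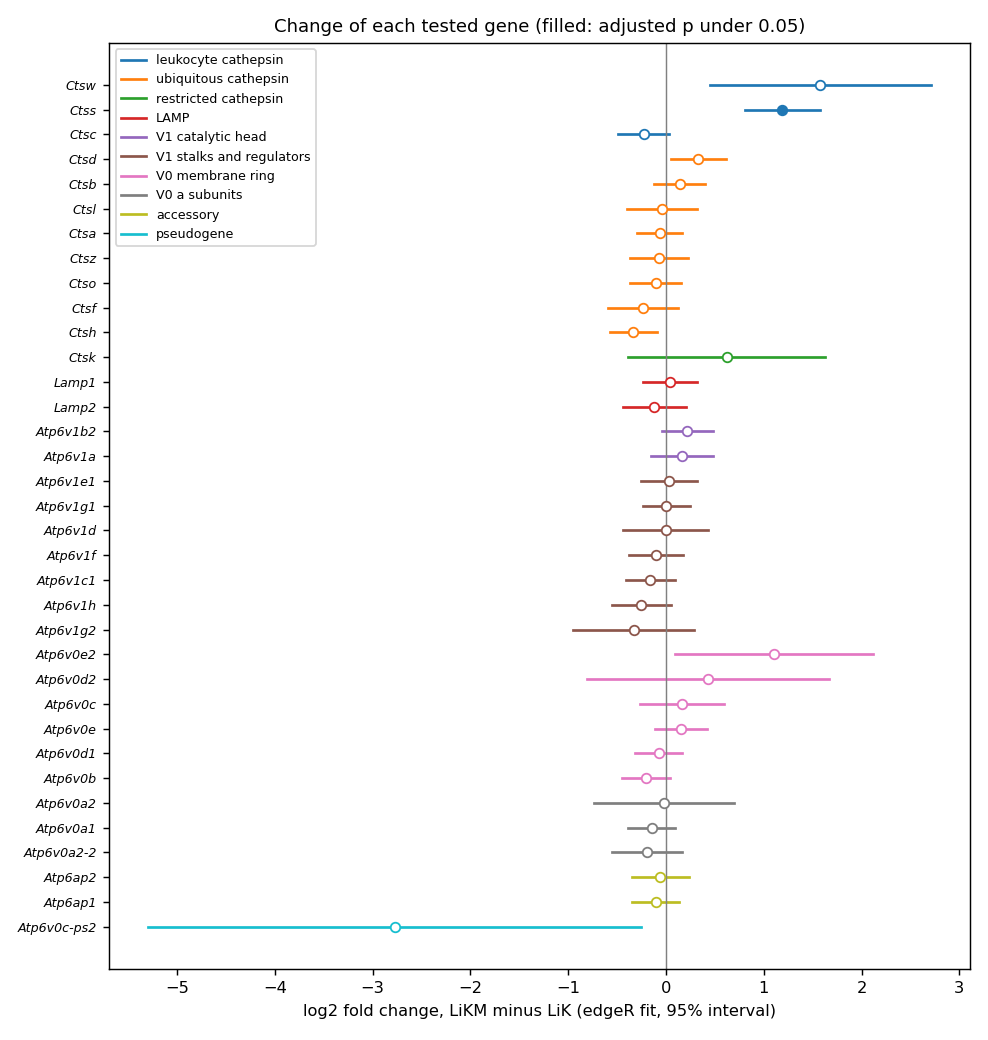
Log2 fold change of each of the 35 tested genes, LiKM minus LiK, with its unadjusted 95% interval from the edgeR fit (3 mice per genotype); colours give the role of the gene product and a filled point an adjusted p under 0.05. Ctss has the only filled point, the intervals of most other genes lie within 1 of 0, and Atp6v0c-ps2 has the widest interval.

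Ctss, which encodes cathepsin S, was about 2.28-fold higher in LiKM. It lay at 23.1, 32.6 and 22.6 CPM in the LiK mice and at 62.0, 61.3 and 55.4 CPM in the LiKM mice. Every LiKM mouse was well above every LiK mouse, and the LiKM values lay close together. The means were 26.1 ± 5.66 and 59.6 ± 3.63 CPM (SD, n = 3 each). The log2 fold change was 1.19 (SE 0.16, 95% interval 0.81 to 1.57) and was called (edgeR, Benjamini-Hochberg adjusted p = 0.0168). The call depended on single libraries: without LiK 1 the edgeR adjusted p was 0.0777 and without LiKM 2 it was 0.0707, with log2 fold changes of 1.11 and 1.15. Over all alternatives tried the log2 fold change lay between 1.09 and 1.38. Ctss took 1.07%, 1.5% and 1.03% of all cathepsin CPM in LiK and 2.73%, 2.78% and 2.43% in LiKM.

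The other cathepsins known from leukocytes did not share that call. Ctsw, the cathepsin of cytotoxic lymphocytes, was scarce, counted 7, 7 and 9 times in LiK and 13, 18 and 37 times in LiKM. These counts correspond to 0.337, 0.352 and 0.369 CPM in LiK and to 0.610, 0.816 and 1.78 CPM in LiKM. All LiKM mice were above all LiK mice, and LiKM 3 stood well above the other two. The log2 fold change was 1.58 (SE 0.48, 95% interval 0.45 to 2.71) and was not called (edgeR, Benjamini-Hochberg adjusted p = 0.109), and without LiKM 3 it was 0.98 (adjusted p = 0.206). Ctsc encodes the dipeptidyl peptidase that activates granule proteases. The gene was abundant, above the ubiquitous Ctso and Ctsf in every mouse, and had a negative sign. It lay at 141, 128 and 142 CPM in LiK and at 106, 117 and 128 CPM in LiKM, where LiKM 3 reached the lowest LiK mouse. Its log2 fold change was −0.23 (SE 0.11, 95% interval −0.49 to 0.04) and missed the call (edgeR, Benjamini-Hochberg adjusted p = 0.287). The interval of Ctsc thus ended below where that of Ctss began.

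The 8 ubiquitous cathepsins were close to level between the genotypes. By edgeR and limma-voom 0 of 8 were called, by DESeq2 1 was, and at an unadjusted p under 0.05 there were 2. The 95% intervals of all 8 lay between −0.60 and 0.61 on the log2 scale, so a 2-fold change of any of them was outside its own unadjusted interval. Ctsd, the main aspartic protease of the lysosome, lay at 343, 363 and 371 CPM in LiK and at 486, 467 and 403 CPM in LiKM. All its LiKM values were the higher ones, and the log2 fold change of 0.33 (SE 0.12) missed the call (edgeR, Benjamini-Hochberg adjusted p = 0.161). Ctsb, a cysteine protease with both endopeptidase and exopeptidase activity, went from 581, 513 and 556 CPM to 616, 598 and 604 CPM. Its groups did not overlap either, but the log2 fold change was only 0.14 (SE 0.11).

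Ctsh, an aminopeptidase of the same cysteine protease family, had the lowest log2 fold change of the cathepsins. It lay at 222, 232 and 241 CPM in LiK and at 187, 191 and 171 CPM in LiKM, with every LiKM mouse below every LiK mouse. The log2 fold change was −0.34 (SE 0.10, 95% interval −0.58 to −0.10), which edgeR did not call (Benjamini-Hochberg adjusted p = 0.109). DESeq2 did call it (log2 fold change −0.36, Benjamini-Hochberg adjusted p = 0.0223).

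Ctsl, an endopeptidase, was nearly identical in the LiK mice at 398, 397 and 403 CPM. In LiKM it was 348 and 342 CPM in mice 1 and 2 but 476 CPM in mouse 3, so the LiKM mice lay on both sides of the LiK level. Its log2 fold change was −0.04 (SE 0.15), or −0.23 without LiKM 3. Ctsz, a carboxypeptidase, ranged from 215 to 272 CPM in LiK and from 214 to 241 CPM in LiKM. Ctsa, a serine carboxypeptidase that also protects beta-galactosidase and neuraminidase, ranged from 135 to 149 and from 133 to 141 CPM. Ctso (48.5 to 55.0 against 43.7 to 52.1 CPM) and Ctsf (31.6 to 37.4 against 23.1 to 32.9 CPM) overlapped as well. The log2 fold changes of these 4 were −0.07, −0.07, −0.11 and −0.24, in that order, with 0 calls by edgeR (Benjamini-Hochberg adjusted p from 0.413 to 0.770).

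Ctsk, the collagen-degrading cathepsin of osteoclasts and fibroblasts, was counted 9, 22 and 34 times in LiK and 27, 31 and 39 times in LiKM. LiK 1 was the low mouse, and the log2 fold change of 0.62 (SE 0.43) missed the call (edgeR, Benjamini-Hochberg adjusted p = 0.440); it was 0.27 without LiK 1. Ctse, an intracellular aspartic protease, held 1 to 9 counts per mouse. Ctsg, the cathepsin of neutrophil granules, had 2 counts in LiK 1 and 0 in the other 5 libraries, below the minimum for being kept. The placental cathepsin genes Ctsj, Ctsm, Ctsq and Ctsr had 0 or 1 count in all.

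**Figure D2:**
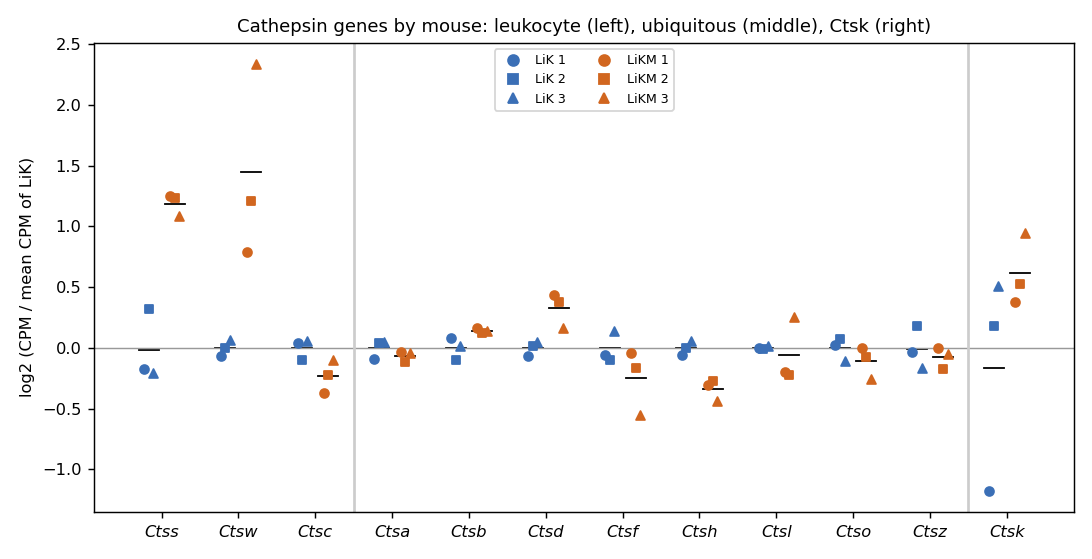
Level of 12 cathepsin genes in each mouse as the log2 ratio of its CPM to the mean CPM of the 3 LiK mice; symbols mark the mice, short lines the group means of the log2 ratios, and grey lines part the leukocyte cathepsins, the ubiquitous ones and Ctsk. Ctss and Ctsw stand above 0 in all LiKM mice, Ctsc does not, and the ubiquitous genes stay near 0.

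Set against the ubiquitous cathepsins within each mouse, the leukocyte cathepsins as a trio were higher in LiKM. The mean log2 CPM of Ctss, Ctsw and Ctsc minus that of the 8 ubiquitous genes was −3.99, −3.89 and −3.99 in the LiK mice. It was −3.44, −3.21 and −2.83 in the LiKM mice, all above LiK. The genotypes differed by 0.79 on this log2 scale, while the ubiquitous mean itself differed by −0.05 (from 7.47 to 7.51 in LiK and from 7.40 to 7.5 in LiKM). A score over chosen genes carries no test here. The trio was not uniform. Ctss alone, relative to the ubiquitous mean, went from −2.93, −2.48 and −3.0 to −1.54, −1.49 and −1.60, and Ctsw from −8.69, −8.68 and −8.62 to −8.01, −7.57 and −6.49. Ctsc went from −0.33, −0.51 and −0.35 to −0.77, −0.56 and −0.40, with overlap. Without Ctsw, the least counted of the 3, the difference between genotypes was 0.54.

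Many markers of leukocytes were higher in LiKM, as Ctss and Ctsw were. The 12 markers of macrophages and Kupffer cells (the resident macrophages of the liver) summed to 285 to 363 CPM in LiK and 444 to 564 CPM in LiKM. Of these 12, 6 rose and 0 fell, beside 5.11% of all genes tested called higher. Among them were the pan-leukocyte gene Ptprc (log2 fold change 1.30, SE 0.14), the adaptor gene Tyrobp (0.93, SE 0.13), the lysozyme gene Lyz2 (0.63, SE 0.10) and the lysosomal membrane gene Laptm5 (1.14, SE 0.18). Marco, Csf1r, Clec4f, Vsig4, Timd4 and Mpeg1 were not called (0.36 to 2.01, edgeR Benjamini-Hochberg adjusted p from 0.0531 to 0.354). The list mixes markers of macrophages in general with those of Kupffer cells, so its calls do not establish a rise of Kupffer cells. The 12 markers of T and natural killer cells summed to 3.20 to 6.93 CPM in LiK and 12.5 to 18.8 CPM in LiKM. Of 10 tested, 8 rose and 0 fell, among them Cd8a (4.10, SE 0.37), Lck (3.02, SE 0.39), Cd3g (3.45, SE 0.51) and Cd3d (2.55, SE 0.42), all scarce. Cd4, also carried by some macrophages and named here after its values were seen, had the only negative log2 fold change of the 10 (−0.94, SE 0.41), counted 103, 67 and 41 times in LiK and 41, 43 and 27 times in LiKM, and was not called (edgeR, Benjamini-Hochberg adjusted p = 0.234). Some defining markers had 0 counts in some libraries: Prf1 in 2, Nkg7 in 1 and Cd3e in 1. Scarce markers enter the test mostly through the group where they are high, so these counts are not read as a share of all markers. In bulk RNA, more cells of a type and more RNA per cell cannot be told apart. Without LiK 1, LiK 2, LiK 3 or LiKM 2, the macrophage markers called numbered 0, 0, 2 and 0, and the T and natural killer cell markers 1, 0, 4 and 1 (5 without LiKM 1).

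Relative to the macrophage markers, all 12 of which were tested, the level of Ctss overlapped between the genotypes. Ctss minus the mean log2 CPM of the macrophage markers was 0.44, 0.82 and 0.57 in LiK and 1.08, 0.77 and 1.05 in LiKM. That overlap rests on LiKM 2 lying below LiK 2, and the group means differed by 0.36. Against Ptprc and Laptm5, described next, the means differed by −0.08 and 0.08. Ctss minus Ptprc was 1.49, 2.06 and 1.34 in LiK and 1.83, 1.54 and 1.28 in LiKM, and Ctss minus Laptm5 ranged from 0.86 to 1.07 and from 0.81 to 1.22, again with overlap. Ctsw minus the mean of the 10 tested T and natural killer cell markers was 0.32, 0.46 and 0.78 in LiK. It was −0.80, −0.95 and 0.29 in LiKM, all lower. Those scarce markers enter the test mostly through LiKM, so no conclusion is drawn from that difference. The part of these cells in the levels of Ctss and Ctsw was not tested.

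**Figure D3:**
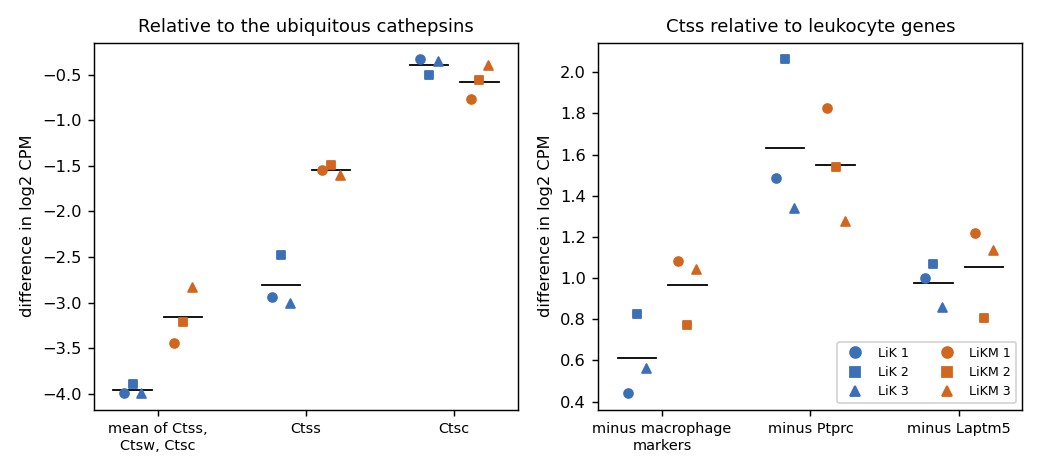
Left, the mean log2 CPM of Ctss, Ctsw and Ctsc, and Ctss and Ctsc alone, minus the mean of the 8 ubiquitous cathepsins in each mouse; right, the log2 CPM of Ctss minus the mean of the macrophage markers, minus Ptprc and minus Laptm5. Points are mice and lines group means. Ctss is higher in every LiKM mouse against the ubiquitous genes and overlaps between genotypes against the 3 leukocyte references. Against the macrophage markers that overlap rests on LiKM 2 and LiK 2.

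Other cell types were read in the same way. The 8 dendritic cell markers summed to 10.2 to 11.7 CPM in LiK and 15.5 to 21.4 CPM in LiKM. By edgeR 3 rose (Fscn1, Itgax and Ccr7, log2 fold changes 1.07, 1.92 and 1.94), beside 5.11% of all genes tested. At most 1 was called without any single library. The other 5 were not called. Of the 8, 7 had a positive log2 fold change, while Clec9a had a negative one (−0.28, SE 0.27) and overlapped between the genotypes. Of 4 tested neutrophil markers 0 were called by edgeR, DESeq2 or limma-voom, or at an unadjusted p under 0.05; the 7 markers summed to 5.09 to 16.6 and 11.3 to 20.7 CPM, with the granule genes Elane and Mpo at 16 and 33 counts over all mice. Of 3 tested osteoclast-like markers Gpnmb rose (2.78, SE 0.56), a call lost without any single library. The list's sum, 130 to 146 CPM in LiK and 112 to 119 CPM in LiKM, was mostly Acp5 (129 to 144 and 109 to 115 CPM). Acp5 was not called (−0.27, SE 0.10, edgeR Benjamini-Hochberg adjusted p = 0.151). Ocstamp, also tested, had a log2 fold change of 0.77 (SE 0.46) and was not called. Stellate cell and fibroblast markers summed to 153 to 286 and 455 to 500 CPM. Of these 6, 3 were called higher by edgeR (Col1a1, Col3a1 and Dcn, 1.57, 1.53 and 1.02), beside 5.11% of all genes tested. Lrat, Des and Pdgfrb (0.58, 1.02 and 0.96) were not called (edgeR, Benjamini-Hochberg adjusted p from 0.0988 to 0.189). Col1a1 and Col3a1 kept their calls only without LiK 3 or LiKM 3, and Dcn only without LiK 3. By edgeR 0 of 6 endothelial and 0 of 5 cholangiocyte markers were called (0 and 2 by DESeq2, 0 and 0 by limma-voom, 2 and 3 at an unadjusted p under 0.05). Their sums overlapped, at 160 to 178 and 151 to 229 CPM for the former and 61.5 to 233 and 93.5 to 207 CPM for the latter. The cholangiocyte sum was mostly Spp1, with 16952 counts over all mice beside 931 for Sox9, the next. Spp1 overlapped between the genotypes (log2 fold change 0.30, SE 0.54). In Krt19, Epcam, Sox9 and Krt7 every LiKM mouse was above every LiK mouse (1.61, 1.56, 1.12 and 0.98), beside 17.8% of all genes tested.

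Levels of different cathepsins were compared per kilobase of transcript, using GENCODE M21 lengths. Counting all exons of a gene, Ctsz (167 CPM per kilobase) and Ctsd (153) led in LiK and overlapped each other, followed by Ctsb (90.9), Ctsl (61.5), Ctsh (51.5), Ctsa (30.6), Ctsc (23.6), Ctss (19.2), Ctso (10.2) and Ctsf (6.71), with Ctsk, Ctsw and Ctse under 1. Apart from Ctsz with Ctsd and Ctsc with Ctss, each neighbour in this order was separate from the next in all LiK mice. In LiKM, Ctss lay at 43.9 CPM per kilobase, level with Ctsh (40.8) within the spread and above Ctsa (29.2) and Ctsc (20.1). On the length of the longest transcript marked as principal instead, Ctss was at 19.3 in LiK and 44.0 in LiKM, under Ctsh (143 and 113) in both. There Ctss overlapped Ctsf in LiK and Ctsc in LiKM. The place of Ctss thus depends on the length used, whereas Ctsd and Ctsz were highest on both of these lengths in LiK. Both take a long Ctsl (6.49 and 6.17 kilobases). The order with shorter transcripts was not tested, so the place of Ctsl and of the leading genes holds for these lengths only.

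The proton pump showed no called change. Of 23 genes kept, 21 were tested and 0 were called by edgeR, DESeq2 or limma-voom, with 1 higher and 1 lower at an unadjusted p under 0.05. Over all genes tested the 3 tools called 5.92%, 11.8% and 4.77% in either direction, and 22.4% had an unadjusted p under 0.05 by edgeR. Among 21 genes such shares allow few calls, so 0 calls alone do not set the pump apart. The median log2 fold change was −0.06. For 18 of the 21 the 95% interval lay within 1 of 0 on the log2 scale, the exceptions being Atp6v0e2, Atp6v0d2 and Atp6v0c-ps2. The summed level of V1 genes was 343, 334 and 350 CPM in LiK and 368, 340 and 311 CPM in LiKM. That of V0 genes, without the pseudogene, was 315, 324 and 287 CPM and 319, 299 and 281 CPM. The ratio of V1 to V0 ranged from 1.03 to 1.22 in LiK and from 1.11 to 1.15 in LiKM. That overlap rests on LiK 3: the other 2 LiK mice had ratios of 1.09 and 1.03, below every LiKM mouse. The pseudogene Atp6v0c-ps2, left out of all V0 sums, lay at 18.4 CPM in LiK 3 and 0.915 to 1.59 CPM in the other mice. Its part in the ratio of LiK 3 was not tested. Without LiK 3 the log2 difference of the V0 sum was −0.10 in place of −0.04.

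In the V1 head, Atp6v1a encodes the catalytic subunit that splits ATP. It lay at 45.8, 53.1 and 53.6 CPM in LiK and at 61.9, 61.0 and 48.0 CPM in LiKM, with overlap (log2 fold change 0.16, SE 0.13). Atp6v1b2, its partner in the head, went from 25.5, 23.9 and 23.1 to 26.1, 27.3 and 31.0 CPM. Those groups did not overlap, but the log2 fold change of 0.22 (SE 0.11) missed the call (edgeR, Benjamini-Hochberg adjusted p = 0.298). The kidney form Atp6v1b1 had 1 count in all.

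Among the V1 stalks and regulators, Atp6v1e1, a peripheral stalk subunit, had the most counts, at 74.7 to 84.8 CPM in LiK and 73.3 to 92.5 CPM in LiKM (0.03, SE 0.12). Atp6v1h, which regulates the coupling of V1 to V0, lay at 50.6, 48.0 and 56.3 CPM and at 49.4, 42.7 and 38.0 CPM (−0.25, SE 0.13). Atp6v1d, the central stalk, had a low LiKM 3 at 30.5 CPM beside 48.6 and 45.3 CPM in the other two, with 37.0 to 44.6 CPM in LiK. The log2 fold changes of the 7 tested genes of this role lay between −0.33 and 0.03, and Atp6v1c1 alone had groups that did not overlap (33.3 to 37.5 against 28.8 to 32.6 CPM).

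In the V0 membrane ring, Atp6v0d1, which joins the ring to the stalk, ranged from 68.6 to 73.2 CPM in LiK and from 61.5 to 72.8 CPM in LiKM. Atp6v0b, a ring subunit, lay at 74.0, 69.8 and 74.5 CPM and at 69.2, 63.0 and 57.7 CPM, with every LiKM mouse lower (log2 fold change −0.20, SE 0.10, not called; edgeR, Benjamini-Hochberg adjusted p = 0.313). The scarcer paralogs spread more. Atp6v0e2 was counted 18, 11 and 21 times in LiK and 48, 18 and 39 times in LiKM (1.10, SE 0.43, edgeR Benjamini-Hochberg adjusted p = 0.189). Atp6v0d2, the form known from osteoclasts and macrophages, was counted 42, 12 and 26 times in LiK and 21, 58 and 28 times in LiKM (0.43, SE 0.53). Its spread within a genotype was larger than the difference.

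The a subunits of V0 direct the pump to particular membranes. Atp6v0a1 lay at 47.7, 56.4 and 50.2 CPM in LiK and at 46.3, 46.0 and 47.2 CPM in LiKM, all lower but by a log2 fold change of only −0.15 (SE 0.10). Atp6v0a2 has 2 rows in the table, Atp6v0a2 and Atp6v0a2-2, and which part of the gene each counts is not given in the sources used here. Together they summed to 27.6, 25.8 and 19.4 CPM in LiK and 22.0, 25.3 and 18.4 CPM in LiKM. Tcirg1, which encodes the a3 subunit of lysosomes but lies outside the symbol rule, ranged from 60.4 to 82.9 CPM and from 77.3 to 92.7 CPM (0.24, SE 0.14). Of the 3 accessory rows, Atp6ap1, an assembly factor, lay at 76.2 to 89.0 and 74.3 to 80.0 CPM (−0.11, SE 0.10), Atp6ap2, the (pro)renin receptor, at 30.6 to 39.3 and 31.1 to 35.0 CPM (−0.06, SE 0.12), and Atp6ap1l had 0 counts.

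One mouse stood apart in the gene of the proton-carrying ring subunit and its pseudogene. Atp6v0c-ps2 was counted 33, 21 and 448 times in LiK and 23, 24 and 19 times in LiKM, so LiK 3 alone was high. Atp6v0c itself was lowest in the same mouse, at 43.9 CPM beside 64.0 and 72.2 CPM in LiK 1 and LiK 2 and 63.6 to 71.8 CPM in LiKM. Summed, the pair came to 65.6, 73.2 and 62.3 CPM in LiK and 72.9, 67.0 and 64.5 CPM in LiKM. Of the counts of both rows, the pseudogene took 29.5% in LiK 3 and 1.42% to 2.42% in the other 5 mice. The GENCODE M21 transcript of the pseudogene has 465 bases and differs from Atp6v0c at 1 of them, and 88.0% of its stretches of 50 bases also occur in Atp6v0c, so the counting could split reads between the rows and the level of each is uncertain. The log2 fold change of the pseudogene was −2.77 (SE 1.07, edgeR Benjamini-Hochberg adjusted p = 0.186) and −0.37 without LiK 3. That of Atp6v0c was 0.16 (SE 0.18) and −0.02 without LiK 3.

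**Figure D4:**
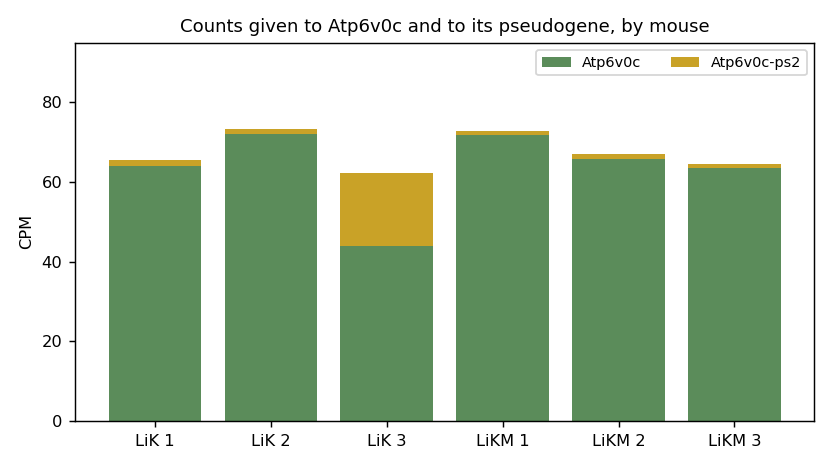
CPM counted to Atp6v0c (green) and to Atp6v0c-ps2 (yellow, stacked on top) in each mouse. The stacked heights run from 62.3 to 73.2 CPM, while the share of the pseudogene is large in LiK 3 only.

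The LAMP genes were abundant and level. Lamp1 lay at 735, 721 and 699 CPM in LiK and at 797, 688 and 724 CPM in LiKM, and Lamp2, which also serves chaperone-mediated autophagy, at 470, 459 and 512 CPM and at 432, 386 and 509 CPM. Both overlapped between the genotypes. The log2 fold changes were 0.04 (SE 0.12, 95% interval −0.24 to 0.31) and −0.12 (SE 0.14, 95% interval −0.44 to 0.20), with 0 of 2 called by edgeR, DESeq2 or limma-voom and 0 at an unadjusted p under 0.05. Lamp3, a marker of mature dendritic cells, had 3 counts in all, each in LiK.

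Of the 35 tested genes, 5 had all LiKM mice above all LiK mice (Ctss, Ctsw, Ctsb, Ctsd and Atp6v1b2), as 17.8% of all genes tested did. In 4 all LiKM mice were below (Ctsh, Atp6v0a1, Atp6v0b and Atp6v1c1), beside 11.9% of all genes tested. These shares were no higher than in the table as a whole.

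The other genes of the lysosome held few calls as well, beside 5.11% of all genes tested called higher and 0.813% lower by edgeR. Of 36 lysosomal hydrolases and activators, 1 rose and 0 fell, with a median log2 fold change of 0.07. The gene that rose was Lgmn, the asparaginyl endopeptidase legumain, which processes cathepsins to their mature forms. It lay at 54.2, 67.0 and 55.6 CPM in LiK and at 95.6, 94.8 and 92.5 CPM in LiKM, without overlap (log2 fold change 0.68, SE 0.11, edgeR Benjamini-Hochberg adjusted p = 0.0246). When 1 library was left out, Lgmn stayed called only without LiKM 3 (edgeR adjusted p from 0.039 to 0.097 over the 6). Of 25 lysosomal membrane, transporter and Ragulator genes, edgeR called 1 higher and 0 lower, with a median of −0.11. DESeq2 called 1 higher and 2 lower and limma-voom 1 higher and 0 lower, against 11.8% and 4.77% of all genes in either direction. At an unadjusted p under 0.05 there were 1 higher and 3 lower, or 4 of 25, against 22.4% of all genes tested. In 8 of the 25 every LiKM mouse was below every LiK mouse, beside 11.9% of all genes tested. The gene that edgeR called was Cd63, a tetraspanin of late endosomes, at 3.37, 5.18 and 5.95 CPM in LiK and 14.0, 11.1 and 15.4 CPM in LiKM (1.48, SE 0.24, edgeR Benjamini-Hochberg adjusted p = 0.0230). Cd63 was called without LiK 3 or LiKM 3 but not without any other library (edgeR adjusted p from 0.0398 to 0.0818).

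Of 12 cathepsin inhibitor genes, 5 were tested, 1 rose and 0 fell, with a median of 0.32. The rise was that of Serpina3g, a serpin that also inhibits cysteine cathepsins, at 6.30, 3.72 and 7.71 CPM in LiK and 14.2, 16.3 and 17.2 CPM in LiKM (1.42, SE 0.26, edgeR Benjamini-Hochberg adjusted p = 0.0284). It was called only without LiK 3 among the fits that leave out a library (edgeR adjusted p from 0.0412 to 0.102). The cystatin genes Cst3 and Cstb, whose products block cysteine cathepsins, were also higher in every LiKM mouse (0.25, SE 0.10, and 0.32, SE 0.10) without being called (edgeR, Benjamini-Hochberg adjusted p of 0.192 and 0.125). So was Serpinb6a (0.42, SE 0.13, edgeR Benjamini-Hochberg adjusted p = 0.107). In 4 of the 5 tested every LiKM mouse was above every LiK mouse, beside 17.8% of all genes tested. By edgeR 4 of the 5 had an unadjusted p under 0.05, against 22.4% of all genes tested.

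Sorting, assembly and control genes were not called by edgeR. Of 13 genes that tag enzymes with mannose 6-phosphate or sort them, 0 were called by the 3 tools (1 at an unadjusted p under 0.05), with the receptor gene M6pr at 98.1 to 113 CPM in LiK and 104 to 123 CPM in LiKM. Of 12 partners of the pump, Tcirg1 among them, 0 were called by edgeR or limma-voom and 1 higher by DESeq2 (1 at an unadjusted p under 0.05). Of 14 tested regulators of lysosomal genes, 0 were called by edgeR or limma-voom, while DESeq2 called 1 higher and 1 lower (3 at an unadjusted p under 0.05). The regulators given here were chosen after their values were seen. Tfeb, the best known activator of lysosomal genes, lay at 14.5, 17.8 and 11.4 CPM in LiK and 10.2, 11.0 and 9.39 CPM in LiKM (−0.51, SE 0.18, edgeR Benjamini-Hochberg adjusted p = 0.156). Its relatives Tfe3, Mitf and Tfec had positive log2 fold changes (0.36, 0.31 and 0.64; SE 0.23, 0.20 and 0.40), with overlap between the genotypes. The smallest adjusted p values of the list were those of Zkscan3, a repressor of autophagy and lysosomal genes (−0.65, SE 0.16, edgeR Benjamini-Hochberg adjusted p = 0.0583), and Rragd, a Rag GTPase (1.09, SE 0.28, edgeR Benjamini-Hochberg adjusted p = 0.0656).

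The result for the summed levels rests on the scaling. Before any scaling, the 38 genes took 0.374%, 0.396% and 0.408% of all counts in LiK and 0.442%, 0.446% and 0.438% in LiKM, without overlap. After TMM scaling, the cathepsin sum was 2165, 2174 and 2188 CPM in LiK and 2274, 2205 and 2281 CPM in LiKM, without overlap and with a log2 difference of 0.050, while the sums of V1, V0 and LAMP genes overlapped. With library totals alone the median of all genes shifted to 0.16 on the log2 scale, and the sums differed by 0.21 for cathepsins, 0.14 for V1, 0.12 for V0 and 0.13 for LAMP genes. Relative to that shift of the median, only the cathepsin sum lay above it.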

How the data were processed

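Liver RNA of 3 LiK and 3 LiKM mice was prepared with a stranded messenger RNA kit, per the labels' protocols. The authors deposited 1 table of raw counts per gene symbol. The submitters' processing notes name FastQC 0.11.7 and featureCounts, a tool that counts reads per gene. No source used here names the aligner, build, annotation or strand setting. Totals ranged from 19909993 to 24874343 counts, and 0 sample columns were left unused.

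Genes passing edgeR's default filter (about 10 counts in 3 libraries, 15 in all) were fitted with edgeR 4.0.16 in R 4.3.3 (TMM, quasi-likelihood, genotype only), with Benjamini-Hochberg adjustment over all 13537 genes tested. TMM factors were 0.903 to 1.11. Standard errors and 95% intervals came from the coefficient and its F statistic. Log2 CPM used a prior count of 2. DESeq2 1.42.0 and limma-voom (limma 3.58.1) were alternatives, with other scalings, filters, the replicate number as a block and each library left out. The members and lists were chosen with earlier results of these data known. Of 181 list entries 181 matched a row, 6 through an older symbol (Adgre1 is listed as Emr1). Named were every called gene, the cathepsins compared, the LAMP genes, the most abundant pump genes of each role and up to 4 called genes of each list (otherwise up to 2 of the most abundant). Clec9a, Lrat, Des, Pdgfrb and the uncalled macrophage markers were named after their values were seen. Other pump genes and cathepsins, Cst3, Cstb, Serpinb6a, Acp5, Ocstamp, Epcam, Krt7 and Krt19 were added after their values were seen. So were genes named only for their counts. The fit was tested on simulated data: of 13379 genes, it recovered 54 of 100 changed 2-fold and 97 of 100 changed 4-fold, with 11 false calls. The changed genes were drawn from the better counted ones, not from scarce genes. Sequences are from RefSeq (GRCm38.p6), lengths from GENCODE M21.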

Additional observations from a re-analysis of the deposited data

How the results depend on the processing

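With 3 mice per genotype the fit found 54 of 100 simulated 2-fold changes, so changes of that size or less can be missed. Ctss kept its call under each of the 3 other scalings, both filters, DESeq2, limma-voom, the replicate block and library totals (added after the data were seen), but not without LiK 1 or LiKM 2. The number of these genes called higher ranged from 0 to 1 over the 6 omissions, and DESeq2 called 1 lower (Ctsh). Over the whole table, genes called higher and lower numbered 692 and 110, but 1214 and 377 with DESeq2, 1039 and 63 with library totals, and 18 to 525 and 1 to 101 without a library. The share of calls that were higher was 86.3%, but 76.3% with DESeq2. With the replicate number as a block, 166 genes were called lower. The numbers share no stated source, so same-numbered mice were not treated as pairs. In their deviations from the group mean they correlated at 0.27, −0.00028 and 0.13, and mice of different number at −0.20 to 0.046. Deviations within a group of 3 depend on each other, so these values cannot decide whether the mice were paired. The block ended the calls of Itgax, Ccr7 and Gpnmb and of no other gene named. The level of the leukocyte trio relative to the ubiquitous cathepsins was higher in LiKM than in LiK by 0.63 to 0.94 without a library. Without Ctsw that difference between genotypes was 0.54. The difference in summed cathepsin CPM was 0.029 with DESeq2's median ratio, 0.079 with upper quartile scaling, 0.21 with library totals, and 0.016 to 0.051 without a library. With library totals it was 0.14 for V1, 0.12 for V0 and 0.13 for LAMP genes. The cause of these shifts was not tested.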
